A study of Mus musculus with 20 samples.

Results

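Lung cells of male C57BL/6 mice that spent a first culture of 4 days inside a collagen hydrogel and a second culture of 2 days on a flat plate (3D-2D, 4 libraries) were set against cells that spent both cultures on flat plates (2D-2D, 4 libraries). Both groups were therefore collected from the same final substrate, and what differed between them by label was the first substrate. Any step that went with it, such as release of the cells from gel, cannot be told apart from the first substrate. The groups were taken from the culture labels of the 20 libraries, 8 of which belong to this comparison. The count table listed 67228 genes, of which 18012 carried values, and 13704 of these had enough counts to be tested. The other libraries were 4 of cells that stayed in gel (3D-3D), 4 of cells moved from plate to gel (2D-3D) and 4 of uncultured lung cells, called sorted, from which magnetic beads had taken out cells with CD45 (leukocytes), EpCAM (epithelium) or CD31 (endothelium). All lungs were labelled normal and no chemical treatment was used. The cultures were started from whole collagenase digests that had not been depleted in this way, and both groups could hold further cell types besides fibroblasts. The labels do not say how many mice were used or whether the 4 libraries of a group came from separate mice, and p-values here measure the spread between these libraries. The comparison addresses whether a first culture in gel left a difference in transcript levels after the cells had been moved to plastic.

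Fibroblasts make and remodel the collagenous matrix of the lung. On stiff, flat plastic they spread, assemble actin stress fibres and take on features of myofibroblasts, the contractile, matrix-producing cells of scars, whereas in a soft collagen gel they are surrounded by matrix on all sides and carry less tension. Tension is read through integrins and the actin cytoskeleton, which control the transcription co-activators YAP, TAZ and MRTF, and it also helps to release TGF-beta from its latent complex. Lung digests also carry macrophages and some epithelial cells, which can survive beside fibroblasts in early culture.

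The 3D-2D libraries held 19672129 to 20289706 counts and the 2D-2D libraries 19773249 to 20328950. In a principal component analysis of the 8 libraries the first component took 53.8% of the variance and separated the 2 groups. The second took 12.9% and set 3D-2D replicate 1 apart, and in counts its chi-square per degree of freedom against the other 3D-2D libraries was 15.29 to 18.94, whereas the other 3 differed from each other by 4.25 to 6.6. Counts of more than 2 list members that moved by over 1.5 times when 1 library was left out (each of the 8, and 3D-3D replicate 3, which also enters the fit) are given with and without it. Counts of 0 to 2 members could move as well, and their ranges are not all given. Genes of fibroblasts were abundant in both groups: Col1a1, a chain of type I collagen, was at 4549.5 ± 684 CPM in 3D-2D and 9752 ± 1137 CPM in 2D-2D (SD, n = 4 each), and Vim, an intermediate filament protein of mesenchymal cells, at 2288 ± 66.8 CPM in 3D-2D and 3109 ± 225 CPM in 2D-2D. Pdgfra, a receptor carried by lung fibroblasts, was at 178 ± 8.88 CPM in 3D-2D and 179 ± 17.98 CPM in 2D-2D and did not pass the test (log2 change -0.02 ± 0.10, adjusted p = 0.923).

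Of the genes tested, 2793 (20.4%) differed between 3D-2D and 2D-2D at an adjusted p below 0.05 in edgeR's quasi-likelihood test with Benjamini-Hochberg adjustment, 1335 (9.74%) higher and 1458 (10.6%) lower in 3D-2D. Log2 changes are given throughout as 3D-2D over 2D-2D with an approximate standard error, and levels as CPM, counts scaled to a common library total, with means ± SD over 4 libraries unless each library is listed. The median absolute log2 change of the called genes was 0.58, and 653 (4.77%) changed at least 2-fold, of which 480 (3.5%) were higher and 173 (1.26%) lower. Higher calls therefore held the larger share of big changes (36% of higher and 11.9% of lower calls reached 2-fold). Without 3D-2D replicate 1 the lower calls numbered 947 beside 1352 higher ones. The division into higher and lower also depended on the scaling: with total counts alone, which moved the median of all genes to 0.08, there were 1887 higher and 865 lower calls. In whole cultures fewer cells of a type and less RNA per cell cannot be told apart, and this holds for every gene below. Counts of list members below are to be read against the shares of all tested genes, 9.74% higher and 10.6% lower.

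The 12 genes with the largest falls, among called genes of at least 10 CPM whose libraries did not overlap, included steroid enzymes, surface proteins of mesenchymal cells and interferon-induced genes. Hsd3b6 (chr3:98805504-98814443), a 3-beta-hydroxysteroid dehydrogenase, was at 1.74, 2.01, 1.80 and 1.248 CPM in 3D-2D, against 73.6, 75.1, 72.9 and 76.1 CPM in 2D-2D (log2 change -5.46 ± 0.22, adjusted p = 1.36e-12). All 4 libraries of 3D-2D were low, and the drop was the largest of this set. Hsd3b6 was also low in 2D-3D, whose first culture was on flat plates (24, 16, 20 and 2 counts). The near-identical Hsd3b1 fell too, to 2.40 ± 0.446 CPM in 3D-2D, against 10.3 ± 1.76 CPM in 2D-2D (-2.11), but reads of these 2 enzymes can be assigned to either, and their counts are uncertain. Thy1 (chr9:44043384-44048579), a surface glycoprotein of fibroblasts, was at 123, 141, 127 and 139 CPM in 3D-2D, against 540.5, 529.6, 529 and 522 CPM in 2D-2D. Its groups lay far apart, with little spread within either (log2 change -2.01 ± 0.10, adjusted p = 4.10e-11), and the 3D-2D level was close to the 127 CPM of the sorted cells. Cd248 (endosialin, a surface protein of fibroblasts and pericytes) averaged 81.6 ± 14.7 CPM in 3D-2D and 283 ± 17.3 CPM in 2D-2D (log2 change -1.81 ± 0.12, adjusted p = 1.12e-09). The adhesion receptor Adgrd1, the neuropeptide Npy, Pappa, a protease that cleaves IGF-binding proteins, and the binding protein Igfbp6 fell by 1.75 to 2.05 on the log2 scale (Adgrd1 -2.05, Npy -1.82, Pappa -1.80, Igfbp6 -1.75). Isg15, Ifit1 and Usp18 complete the interferon-induced part of this group.

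Most interferon-stimulated genes tested were lower in 3D-2D. Their products limit viral replication, and their transcription is switched on through the interferon-stimulated response element (ISRE) near the gene start. Of 36 list members tested, 24 were lower and 2 higher, with a median log2 change of -0.73, beside -0.01 over all genes tested. Leaving out 1 library gave 21 to 25 lower and 0 to 2 higher. The promoters of 4 of the lower genes are printed here because they hold this element, from 250 bases before to 50 bases after the start of a RefSeq transcript (GRCm38.p6), 5′ to 3′ on the gene's strand. For Ifit3 this start lies 410 bases inside the annotated gene, and for the other 3 it is the first base of the gene. Capitals mark matches on either strand to GAAA, any 2 bases and GAAA again. The Isg15 promoter (chr4:156200769-156201068, minus strand) holds 3 overlapping matches that begin 78, 72 and 66 bases before the start. The Ifit1 promoter (chr19:34640639-34640938, plus strand) holds 2, the Ifit3 promoter (chr19:34583279-34583578, plus strand) 2 and the Rsad2 promoter (chr12:26456403-26456702, minus strand) 1.
Isg15: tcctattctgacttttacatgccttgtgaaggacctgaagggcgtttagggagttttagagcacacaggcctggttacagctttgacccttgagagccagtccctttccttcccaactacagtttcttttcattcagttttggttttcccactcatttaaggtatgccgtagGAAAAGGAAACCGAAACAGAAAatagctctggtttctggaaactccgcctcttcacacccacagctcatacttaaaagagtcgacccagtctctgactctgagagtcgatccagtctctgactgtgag
Ifit1: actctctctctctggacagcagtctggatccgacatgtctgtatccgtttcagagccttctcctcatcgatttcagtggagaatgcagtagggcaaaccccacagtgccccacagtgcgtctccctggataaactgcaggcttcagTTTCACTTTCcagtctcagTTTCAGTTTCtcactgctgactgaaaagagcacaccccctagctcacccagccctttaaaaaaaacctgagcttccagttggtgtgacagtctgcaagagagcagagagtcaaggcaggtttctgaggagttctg
Ifit3: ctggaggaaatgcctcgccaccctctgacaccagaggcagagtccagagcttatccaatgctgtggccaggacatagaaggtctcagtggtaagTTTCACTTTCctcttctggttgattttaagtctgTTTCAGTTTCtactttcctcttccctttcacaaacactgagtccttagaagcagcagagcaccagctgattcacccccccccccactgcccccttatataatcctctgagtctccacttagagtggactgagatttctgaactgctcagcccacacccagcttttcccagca
Rsad2: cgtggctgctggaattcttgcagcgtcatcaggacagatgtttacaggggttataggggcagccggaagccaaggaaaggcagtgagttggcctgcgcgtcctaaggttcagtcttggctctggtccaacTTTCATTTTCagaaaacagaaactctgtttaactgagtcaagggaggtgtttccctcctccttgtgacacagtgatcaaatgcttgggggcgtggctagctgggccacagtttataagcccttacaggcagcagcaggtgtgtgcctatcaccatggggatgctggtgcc

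The element was found in 12 of the 22 promoters of the interferon genes called lower (54.5%; 20 of the 24 genes had a promoter in the table), in 17 of 31 promoters of all interferon genes tested (54.8%), in 436 of 13882 of all tested genes (3.14%) and in 1131 of 32851 promoters of all genes (3.44%). Among promoters of all genes lowered at least 2-fold its share was 13.2% (18 of 136), and among those raised at least 2-fold 5.25% (23 of 438). The list was drawn up of known interferon genes, so its share describes the list and not the change, and this motif was added after the changes had been seen.

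Isg15, a ubiquitin-like protein that is conjugated to other proteins, was at 6.395, 7.12, 7.67 and 6.08 CPM in 3D-2D, against 34.3, 35.2, 32.5 and 31.9 CPM in 2D-2D. The groups were several-fold apart in all libraries (log2 change -2.30 ± 0.16, adjusted p = 2.56e-09). Ifit1, which binds viral RNA, was at 3.65, 3.10, 3.16 and 2.82 CPM in 3D-2D, against 17.5, 19.0, 16.2 and 26.8 CPM in 2D-2D, again with every 3D-2D library below every 2D-2D library (log2 change -2.65 ± 0.22, adjusted p = 2.53e-08). Its relative Ifit3 averaged 2.06 ± 0.667 CPM in 3D-2D and 8.19 ± 2.40 CPM in 2D-2D (-2.004), and the antiviral radical enzyme Rsad2 averaged 0.834 ± 0.229 CPM in 3D-2D and 2.09 ± 0.770 CPM in 2D-2D (-1.33). Usp18, the protease that removes Isg15 from its targets, averaged 5.02 ± 1.19 CPM in 3D-2D and 17.6 ± 1.73 CPM in 2D-2D (-1.82), and Zbp1, a sensor of Z-form nucleic acids, 25.1 ± 1.44 CPM in 3D-2D and 77.1 ± 7.06 CPM in 2D-2D (-1.63). Irf7, a transcription factor of the response, fell as well, by 1.10 (33.2 ± 2.31 CPM in 3D-2D and 70.4 ± 4.52 CPM in 2D-2D; adjusted p = 1.17e-06). The 2 members called higher were Irf1 (log2 change 0.25 ± 0.09, adjusted p = 0.0465), whose call was lost in 7 of 19 alternative settings, and Gbp4, with 20 counts over the 4 libraries of 3D-2D and 1 over those of 2D-2D, a call lost in 5 of 18. The interferon-induced chemokine Cxcl10 averaged 2.58 ± 0.781 CPM in 3D-2D and 5.50 ± 3.52 CPM in 2D-2D and was called lower (log2 change -1.11 ± 0.35, adjusted p = 0.0288), but its libraries overlapped and 5 of 19 alternatives lost the call. Ifit and Gbp genes are families of similar sequence, and their separate counts are uncertain to that extent. Interferon-induced genes are made by macrophages as well as fibroblasts, and macrophage markers took 1.76 to 1.85% of counts in 3D-2D and 1.06 to 1.28% in 2D-2D. The part of cell composition in the interferon genes was not tested.

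Structural collagens and the enzymes that mature them were lower in 3D-2D. Of the 10 fibrillar collagen genes tested 7 fell and none rose (median log2 change -0.83). Col1a1 (chr11:94936224-94953042) was at 3624, 5113, 4442 and 5018 CPM in 3D-2D, against 8767, 9116, 9789 and 11334 CPM in 2D-2D (log2 change -1.11 ± 0.12, adjusted p = 5.87e-07). The highest 3D-2D library stood well below the lowest 2D-2D library. Col1a2, the other chain of type I collagen, averaged 1669 ± 212 CPM in 3D-2D and 3880.2 ± 357 CPM in 2D-2D (log2 change -1.23 ± 0.09, adjusted p = 7.09e-09), and Col3a1, the chain of type III collagen, 1221 ± 145 CPM in 3D-2D and 1902 ± 294 CPM in 2D-2D (log2 change -0.65 ± 0.13, adjusted p = 6.27e-04). Col11a1, which is made at low level in normal lung and helps to set fibril width, averaged 14.5 ± 1.75 CPM in 3D-2D and 39.5 ± 7.26 CPM in 2D-2D (-1.46). Of 11 other interstitial collagens 6 fell, among them Col8a1, a short-chain network collagen (-1.18), and 2 rose. One of the 2 was Col13a1, a transmembrane collagen and marker of alveolar fibroblasts, at 3.81, 5.54, 5.33 and 5.97 CPM in 3D-2D, against 0.754, 0.571, 0.463 and 0.396 CPM in 2D-2D (log2 change 3.22 ± 0.24, adjusted p = 8.54e-09). Its 3D-2D level was nonetheless small beside the 199.7 CPM of the sorted cells.

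Of 23 genes for collagen hydroxylation, processing and crosslinking 18 fell and 1 rose (median -0.54). Lox (chr18:52516060-52529867), the lysyl oxidase that starts crosslinking of collagen and elastin, was at 462, 429, 385 and 445 CPM in 3D-2D, against 865, 828, 946 and 1258 CPM in 2D-2D. Each 2D-2D library held more than any 3D-2D library (log2 change -1.19 ± 0.20, adjusted p = 1.25e-04). P4ha2, a prolyl hydroxylase that stabilises the collagen helix, averaged 107 ± 13.2 CPM in 3D-2D and 187 ± 9.48 CPM in 2D-2D (-0.82), and Plod2, a lysyl hydroxylase whose product sets the kind of crosslink, 58.6 ± 3.65 CPM in 3D-2D and 96.7 ± 13.1 CPM in 2D-2D (-0.73). The member that rose was Pcolce2, an enhancer of procollagen processing (15.03 ± 1.38 CPM in 3D-2D and 7.98 ± 0.995 CPM in 2D-2D; 0.90).

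Elastic fibre genes followed the same direction, with 11 of 15 lower and none higher (median -0.59). Fbln2, fibulin-2, which links elastic fibres to basement membranes, was at 498, 619.5, 586 and 680.0 CPM in 3D-2D, against 1666, 1724, 1641 and 2092 CPM in 2D-2D (log2 change -1.59 ± 0.10, adjusted p = 1.00e-09), and Fbn1, fibrillin-1, the scaffold of microfibrils, averaged 342 ± 44.5 CPM in 3D-2D and 626 ± 88.3 CPM in 2D-2D (log2 change -0.88 ± 0.11, adjusted p = 7.18e-06). Eln, elastin itself, was low in both groups at 7.40 ± 1.28 CPM in 3D-2D and 11.3 ± 3.66 CPM in 2D-2D, with overlapping libraries, and did not pass the test (log2 change -0.62 ± 0.22, adjusted p = 0.0519). Among 21 basement membrane genes 14 were lower and 3 higher (median -0.52; 9 lower without 3D-2D replicate 1). Col4a1, a chain of type IV collagen, averaged 585 ± 66.9 CPM in 3D-2D and 951 ± 94.4 CPM in 2D-2D (log2 change -0.71 ± 0.10, adjusted p = 2.80e-05). The genes that rose included Lama3 and Lamb3, which encode laminin chains of epithelial cells and were scarce: Lama3 averaged 2.34 ± 0.660 CPM in 3D-2D and 0.272 ± 0.0946 CPM in 2D-2D and Lamb3 3.45 ± 1.302 CPM in 3D-2D and 0.386 ± 0.237 CPM in 2D-2D (3.06 and 3.12).

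Proteins that regulate the matrix were more divided. Small leucine-rich proteoglycans bind collagen fibrils: Dcn (decorin) and Lum (lumican) rose to 184 ± 23.9 CPM in 3D-2D, against 123 ± 13.1 CPM in 2D-2D and to 4.56 ± 1.19 CPM in 3D-2D, against 1.89 ± 0.726 CPM in 2D-2D (0.57 and 1.26), while Bgn (biglycan) averaged 2439 ± 215 CPM in 3D-2D and 4460.1 ± 436 CPM in 2D-2D (-0.88) and Podn (podocan) 12.2 ± 0.626 CPM in 3D-2D and 35.1 ± 5.84 CPM in 2D-2D (-1.53). Of 23 matricellular and adhesive glycoproteins 13 fell and 3 rose. Wisp2, a CCN-family matricellular protein, was at 80.1, 75.0, 76.8 and 77.7 CPM in 3D-2D, against 267, 242, 246 and 237 CPM in 2D-2D (log2 change -1.69 ± 0.22, adjusted p = 6.74e-06), with every 3D-2D library far below every 2D-2D library. Thbs2 (thrombospondin-2), an inhibitor of vessel growth, fell by 1.07 and Sparc, a collagen-binding protein, by 0.72. Tgfbi, an integrin-binding protein induced by TGF-beta, was among those that rose, at 84.6 ± 9.26 CPM in 3D-2D and 28.3 ± 2.34 CPM in 2D-2D (log2 change 1.57 ± 0.09, adjusted p = 1.67e-10). Fn1 (fibronectin) was at 3598 ± 645 CPM in 3D-2D and 3879 ± 561 CPM in 2D-2D with overlapping libraries and did not pass the test (log2 change -0.12 ± 0.16, adjusted p = 0.654).

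Both gelatinases were higher. Mmp9 (chr2:164940326-164955850), a gelatinase made by neutrophils and macrophages among others, was at 1231, 1579, 1400.5 and 1509 CPM in 3D-2D, against 476, 497, 516 and 481 CPM in 2D-2D (log2 change 1.53 ± 0.12, adjusted p = 1.18e-08). Each 3D-2D library held more than the highest 2D-2D library, by a wide margin. Mmp2, the gelatinase of fibroblasts, averaged 86.3 ± 6.22 CPM in 3D-2D and 49.4 ± 4.95 CPM in 2D-2D (0.79), and Timp1, an inhibitor of metalloproteases, fell to 925 ± 20.9 CPM in 3D-2D, against 1271 ± 147 CPM in 2D-2D (-0.47). Over 25 metalloprotease and TIMP genes, 6 were higher and 11 lower (7 and 7 with total counts alone). In the plasminogen system Serpinb2, an inhibitor of plasminogen activators, rose to 48.7 ± 8.71 CPM in 3D-2D, against 16.4 ± 1.86 CPM in 2D-2D (1.56), with 6 of 15 members higher and 5 lower. The lower count was 2 with total counts alone or without 2D-2D replicate 4, and 3 without 2D-2D replicate 1 or 3D-2D replicate 1, 3 or 4.

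**Figure D1:**
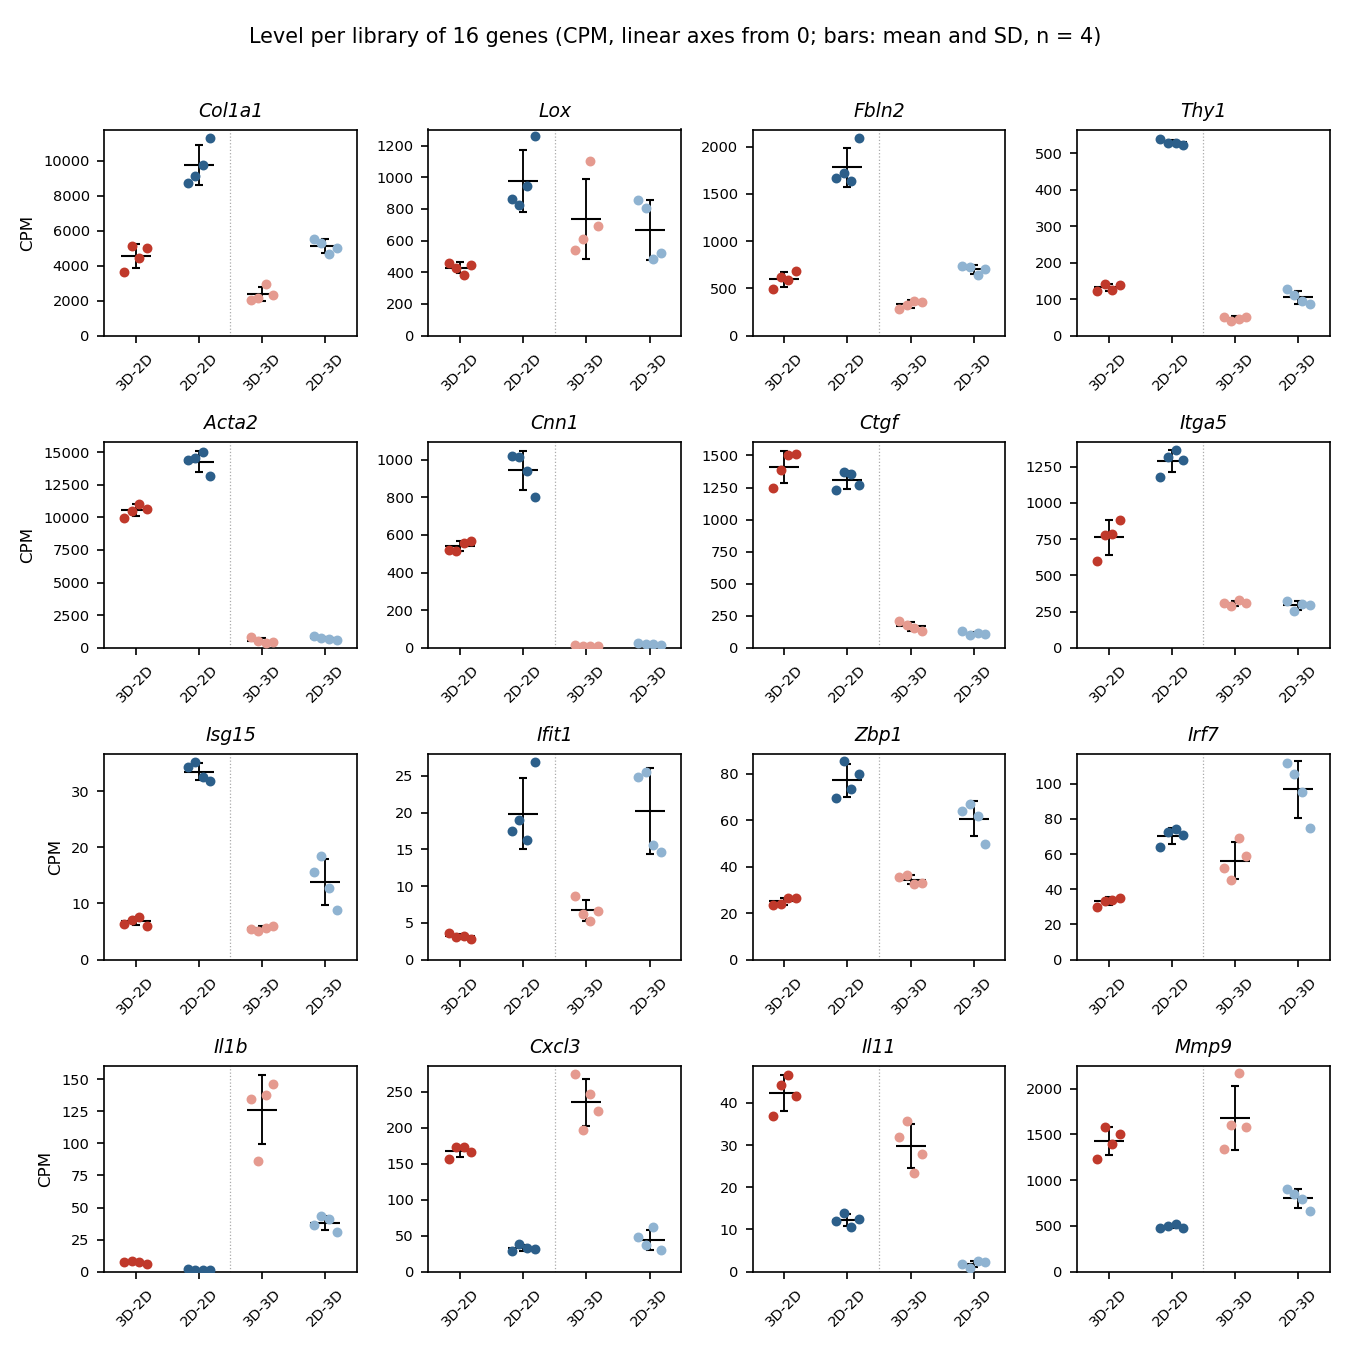
Level per library in CPM (y axes, linear from 0) of 16 genes in 3D-2D and 2D-2D, with 3D-3D and 2D-3D to the right of the dotted line. Points are libraries, bars the mean and SD (n = 4). The matrix genes Col1a1, Lox and Fbln2 and the interferon genes Isg15, Ifit1, Zbp1 and Irf7 are lower in all 3D-2D libraries than in all 2D-2D libraries, Il1b, Cxcl3, Il11 and Mmp9 higher, and Ctgf overlaps.

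Contractile genes were lower by smaller amounts, and their leading member did not pass the test. Acta2, alpha smooth muscle actin and the usual marker of myofibroblasts, was at 9974, 10488, 11058 and 10667 CPM in 3D-2D, against 14440.0, 14543, 15028 and 13149 CPM in 2D-2D. The groups did not overlap, but the change was not called against the spread of the 16 cultured libraries (log2 change -0.45 ± 0.17, adjusted p = 0.0765). Tagln (transgelin, an actin-binding protein) was likewise separate between groups at 2969 ± 104 CPM in 3D-2D and 3613 ± 133 CPM in 2D-2D without passing (log2 change -0.29 ± 0.14, adjusted p = 0.147), and so was Myh11, smooth muscle myosin (102 ± 5.16 CPM in 3D-2D and 129 ± 12.4 CPM in 2D-2D; log2 change -0.35 ± 0.15, adjusted p = 0.102). Cnn1 (calponin-1, a regulator of smooth muscle contraction) fell, at 521, 515, 557 and 567 CPM in 3D-2D, against 1022, 1013, 939 and 801 CPM in 2D-2D (log2 change -0.81 ± 0.17, adjusted p = 0.00141). Of 18 contractile genes 7 were lower and none higher (median -0.34). This count changed with the fit and the scaling: a fit of the 8 libraries alone called 11 lower and 1 higher, and total counts alone 4 lower and 1 higher. For scale, the same genes were far lower in both gel-ended groups, with Acta2 at 549 ± 208 CPM in 3D-3D, against 722 ± 131 CPM in 2D-3D.

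Among genes of focal adhesions and the actin cytoskeleton 13 of 26 were lower and 1 higher, with log2 changes between -0.48 and 0.27. Zyx (zyxin, which sits at stressed adhesions) averaged 1775 ± 174 CPM in 3D-2D and 2431 ± 201 CPM in 2D-2D (log2 change -0.46 ± 0.09, adjusted p = 7.88e-04). Without 3D-2D replicate 1, the lowest library for Zyx, 7 of the 26 were lower, and with total counts alone 5 were lower and 4 higher. Targets of YAP and TAZ showed little difference: Ctgf was at 1243, 1383, 1507 and 1510.4 CPM in 3D-2D, against 1227, 1373, 1356 and 1267 CPM in 2D-2D (log2 change 0.10 ± 0.11, adjusted p = 0.583), Cyr61 at 1379 ± 119.9 CPM in 3D-2D and 1397 ± 71.2 CPM in 2D-2D (-0.03, adjusted p = 0.887) and Ankrd1 at 157 ± 12.5 CPM in 3D-2D and 137 ± 11.8 CPM in 2D-2D (0.19, adjusted p = 0.453). These 3 standard targets overlapped between groups. Over 26 targets 5 were lower and 1 higher (median -0.11; 2 lower without 3D-2D replicate 1 or 3 or 2D-2D replicate 3 or 4). F3 (tissue factor) was among the lower ones, at 284 ± 21.8 CPM in 3D-2D and 442 ± 8.60 CPM in 2D-2D (-0.65). The number of higher targets was 0 or 1 with 1 library left out.

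Regulators of mechanosensing included 9 lower and 1 higher of 31 (4 lower without 3D-2D replicate 1, and 5 without 3D-2D replicate 3 or 2D-2D replicate 2, 3 or 4). Cav1 (caveolin-1), the coat protein of the membrane invaginations that flatten under stretch, was at 55.5, 40.4, 43.2 and 45.7 CPM in 3D-2D, against 97.9, 93.4, 100.01 and 102 CPM in 2D-2D (log2 change -1.10 ± 0.15, adjusted p = 1.66e-05), with no overlap. The co-activator genes themselves moved little: Yap1 was -0.24 (adjusted p = 0.0428, a call lost in 11 of 19 alternatives), Mkl1, which encodes MRTF-A, -0.30 (adjusted p = 0.0366, lost in 7 of 19) and Tead1, the DNA-binding partner of YAP, -0.48 (adjusted p = 0.0202, lost in 5 of 19). The stretch-gated channel gene Piezo1 did not pass (-0.30, adjusted p = 0.0975). The TEAD motif GGAATG, searched on both strands of the same promoter windows, was in 13.9% of promoters of genes raised at least 2-fold, 13.2% of those lowered at least 2-fold, 12.2% of those of all tested genes and 14.7% of all promoters. The CArG box of serum response factor (CC, 6 of A or T, GG) was in 1.83%, 3.68%, 1.3% and 1.63% of the same 4 sets.

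Adhesion receptors and growth factor pathways were divided. Of 21 integrins and collagen receptors 5 rose and 7 fell. With 1 library left out 2 to 5 rose and 4 to 8 fell (2 rose without 3D-2D replicate 2 or 4 or 2D-2D replicate 1). Itga5, the fibronectin receptor chain, was at 599.6, 779, 788 and 885 CPM in 3D-2D, against 1182, 1317, 1366 and 1298 CPM in 2D-2D (log2 change -0.77 ± 0.10, adjusted p = 4.71e-06), all 3D-2D libraries being below all 2D-2D libraries. In the TGF-beta pathway the ligand Tgfb1 averaged 447 ± 49.8 CPM in 3D-2D and 351 ± 19.7 CPM in 2D-2D and rose, its libraries overlapping (log2 change 0.34 ± 0.09, adjusted p = 0.00922), while Pmepa1, a target and inhibitor of the pathway, fell to 223 ± 17.1 CPM in 3D-2D, against 351 ± 6.25 CPM in 2D-2D (log2 change -0.66 ± 0.07, adjusted p = 4.99e-07). Over 23 TGF-beta genes 2 were higher and 7 lower, beside 9.74% higher and 10.6% lower among all tested genes. The ligands Bmp2 and Bmp4 of the BMP pathway were higher (11.6 ± 0.453 CPM in 3D-2D and 4.29 ± 0.537 CPM in 2D-2D; 1.42; and 11.6 ± 1.17 CPM in 3D-2D and 4.76 ± 0.841 CPM in 2D-2D; 1.27), among 5 higher and 6 lower of 27 (5 and 1 without 3D-2D replicate 1, 5 and 3 without 3D-2D replicate 3 or 2D-2D replicate 4).

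In the Wnt pathway, 5 of 28 genes were higher and 7 lower. Axin2, a feedback target, was scarce at 1.74 ± 0.516 CPM in 3D-2D and 0.586 ± 0.318 CPM in 2D-2D (log2 change 1.54 ± 0.35, adjusted p = 0.00296), and Rspo3, a secreted amplifier of Wnt signals, fell to 15.2 ± 1.51 CPM in 3D-2D, against 28.3 ± 2.84 CPM in 2D-2D (log2 change -0.91 ± 0.10, adjusted p = 7.76e-07). Pdgfrb, the PDGF receptor of pericytes and activated fibroblasts, averaged 163 ± 19.3 CPM in 3D-2D and 310.1 ± 24.8 CPM in 2D-2D (log2 change -0.94 ± 0.10, adjusted p = 4.34e-07). Igf1, a growth factor made by fibroblasts and macrophages, was at 57.7, 41.8, 45.8 and 43.8 CPM in 3D-2D, against 108, 87.9, 90.9 and 103 CPM in 2D-2D (log2 change -1.06 ± 0.12, adjusted p = 2.06e-06). Of 14 genes of the IGF axis 5 were lower and 1 higher, and of 36 other growth factor ligands and receptors 7 were lower and 8 higher (5 higher without 3D-2D replicate 2 or 2D-2D replicate 1).

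Inflammatory mediators went the other way. Of 27 cytokines and colony-stimulating factors 13 were higher and 3 lower (median 0.63), and of 25 chemokines 11 were higher and 1, Cxcl10, lower (median 0.64). Leaving out 1 library gave 0 to 2 lower chemokines. Il1b (chr2:129364569-129371164), the secreted interleukin-1 of macrophages, was at 7.88, 8.48, 7.40 and 6.24 CPM in 3D-2D, against 1.74, 1.26, 1.21 and 1.36 CPM in 2D-2D (log2 change 2.41 ± 0.22, adjusted p = 7.19e-08). Il1a, its relative that also acts inside cells, averaged 12.8 ± 2.19 CPM in 3D-2D and 4.65 ± 0.495 CPM in 2D-2D (1.45). Il11, a cytokine of the IL-6 family that fibroblasts make, was at 36.8, 44.3, 46.6 and 41.7 CPM in 3D-2D, against 11.9, 13.8, 10.6 and 12.5 CPM in 2D-2D (log2 change 1.78 ± 0.16, adjusted p = 7.58e-08), with the groups far apart. Il6 averaged 102 ± 42.7 CPM in 3D-2D and 59.7 ± 4.86 CPM in 2D-2D (log2 change 0.77 ± 0.24, adjusted p = 0.0241), with 3D-2D replicate 1 the highest. Its call was lost in 3 of 19 alternatives, without that library among them. Csf2 (GM-CSF) was scarce in both groups, at 1.62 ± 0.592 CPM in 3D-2D and 0.0717 ± 0.0547 CPM in 2D-2D, and rose (4.37), while Csf1, the survival factor of macrophages, fell to 1333 ± 125 CPM in 3D-2D, against 1763 ± 143 CPM in 2D-2D (log2 change -0.41 ± 0.09, adjusted p = 0.00155).

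Several chemokines were higher, neutrophil attractants among them. Ppbp (chr5:90768518-90770063), a chemokine best known from platelets, was at 501, 423, 462 and 345 CPM in 3D-2D, against 38.6, 44.4, 47.7 and 43.4 CPM in 2D-2D, with no library near those of the other group (log2 change 3.30 ± 0.14, adjusted p = 3.71e-12). Cxcl3 was at 156, 173, 173 and 166 CPM in 3D-2D, against 29.4, 38.8, 32.9 and 31.1 CPM in 2D-2D (log2 change 2.33 ± 0.16, adjusted p = 1.76e-09), and Cxcl2 averaged 26.0 ± 1.36 CPM in 3D-2D and 7.47 ± 0.808 CPM in 2D-2D (log2 change 1.79 ± 0.11, adjusted p = 8.25e-10). Ccl24 (eotaxin-2), an attractant of eosinophils made by macrophages, was at 16.3, 25.8, 28.0 and 21.7 CPM in 3D-2D, against 1.16, 1.77, 2.37 and 1.41 CPM in 2D-2D (log2 change 3.76 ± 0.25, adjusted p = 1.02e-09). NF-kB, the transcription factor downstream of interleukin-1, had 7 of 18 regulators and targets higher and 1 lower, among them its inhibitor Nfkbia (170.0 ± 9.53 CPM in 3D-2D and 103 ± 6.61 CPM in 2D-2D; 0.71) and Lcn2, an iron-sequestering protein, at 191, 241, 190.0 and 187 CPM in 3D-2D, against 67.8, 80.5, 75.9 and 85.9 CPM in 2D-2D (log2 change 1.37 ± 0.12, adjusted p = 7.83e-08). The AP-1 motif TGACTCA was in 9.36% of promoters of genes raised at least 2-fold, 11.8% of those lowered at least 2-fold, 4.03% of those of all tested genes and 5.2% of all promoters.

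Other immune lists were also tilted upward. Of 19 prostaglandin genes 9 were higher and 2 lower, Tbxa2r (the thromboxane receptor) being one of the 2 lower (3.79 ± 0.616 CPM in 3D-2D and 10.4 ± 1.20 CPM in 2D-2D; -1.47). Of 21 antigen presentation genes 10 were higher and 1 lower (none lower without 3D-2D replicate 1 or 3), and Cd74, the invariant chain of MHC class II, was at 15.4, 17.4, 16.7 and 17.2 CPM in 3D-2D, against 3.77, 3.77, 3.82 and 3.39 CPM in 2D-2D (log2 change 2.16 ± 0.21, adjusted p = 1.50e-07). Complement genes were divided, with 8 of 24 higher and 6 lower. Clu (clusterin), an inhibitor of the terminal pathway, averaged 302 ± 75.9 CPM in 3D-2D and 107 ± 3.02 CPM in 2D-2D (1.49), and C1qa, a C1q chain made by macrophages, 681 ± 50.4 CPM in 3D-2D and 439 ± 49.9 CPM in 2D-2D (0.62). Of 34 lysosomal genes 12 were higher and 2 lower (1 lower without 3D-2D replicate 1). Macrophage markers were also higher in 3D-2D, as given above, and neutrophil markers, whose most abundant member was Mmp9, took 0.155 to 0.173% of counts in 3D-2D and 0.0531 to 0.0579% in 2D-2D. Their part in the inflammatory genes was not tested.

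Stress and proliferation genes gave a smaller picture. Of 23 targets of ATF4, the factor that raises amino acid synthesis, 16 fell and none rose (median -0.37). Trib3, a pseudokinase induced by ATF4, averaged 11.9 ± 1.63 CPM in 3D-2D and 29.2 ± 3.53 CPM in 2D-2D (log2 change -1.31 ± 0.26, adjusted p = 8.51e-04), Chac1, which degrades glutathione, 9.93 ± 1.16 CPM in 3D-2D and 21.4 ± 2.06 CPM in 2D-2D (-1.12), and Asns, asparagine synthetase, 159 ± 5.61 CPM in 3D-2D and 243 ± 16.7 CPM in 2D-2D (-0.62). Of 32 mitosis genes none was called by edgeR at an adjusted p below 0.05, or by DESeq2, and 1 higher and 1 lower passed an unadjusted p below 0.05 in edgeR. Without 2D-2D replicate 1, 1 was called lower. Mki67, the standard proliferation marker, was at 145, 135, 123 and 147 CPM in 3D-2D, against 125, 162, 217 and 227 CPM in 2D-2D, with overlapping groups (log2 change -0.42 ± 0.18, adjusted p = 0.116), and Plk1, a mitotic kinase, was -0.07 (adjusted p = 0.653). Of 35 DNA replication genes 4 were higher and none lower, but a fit of the 8 libraries alone called 17 higher and total counts alone 11. Only 2 were higher without 3D-2D replicate 2, 3 or 4 or 2D-2D replicate 1 or 4. Immediate early genes had 3 of 30 higher and 6 lower (3 and 3 without 3D-2D replicate 1 or 2D-2D replicate 2), with Egr1, a growth-factor-induced transcription factor, at 321 ± 38.5 CPM in 3D-2D and 580.0 ± 149.8 CPM in 2D-2D (log2 change -0.87 ± 0.22, adjusted p = 0.00727). The shares over all tested genes were 9.74% higher and 10.6% lower, and 3 of 30 is near either.

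Of 31 nuclear respiratory chain genes 1 was lower, of 30 ribosomal protein genes 1 and of 34 chromatin genes 4, and none was called higher. For chromatin genes this is near the 10.6% lower among all tested genes. The counts of these lists moved with the settings. With 1 library left out 0 to 1, 0 to 4 and 2 to 5 of them were lower. The fit of the 8 libraries called 1 respiratory chain gene and 2 chromatin genes higher. Of 35 glycolysis and hypoxia genes 2 were higher and 3 lower. The fit of the 8 libraries alone called 17 of 34 lower. The fit without 3D-3D replicate 3 called 12 lower, and leaving out any of the 8 gave 0 or 1. Of 31 genes of cholesterol and fatty acid synthesis 3 were higher and 7 lower. Without 3D-2D replicate 1 these were 4 and 3. Only 1 was higher without 2D-2D replicate 2 or 3D-2D replicate 2 or 3.

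**Figure D2:**
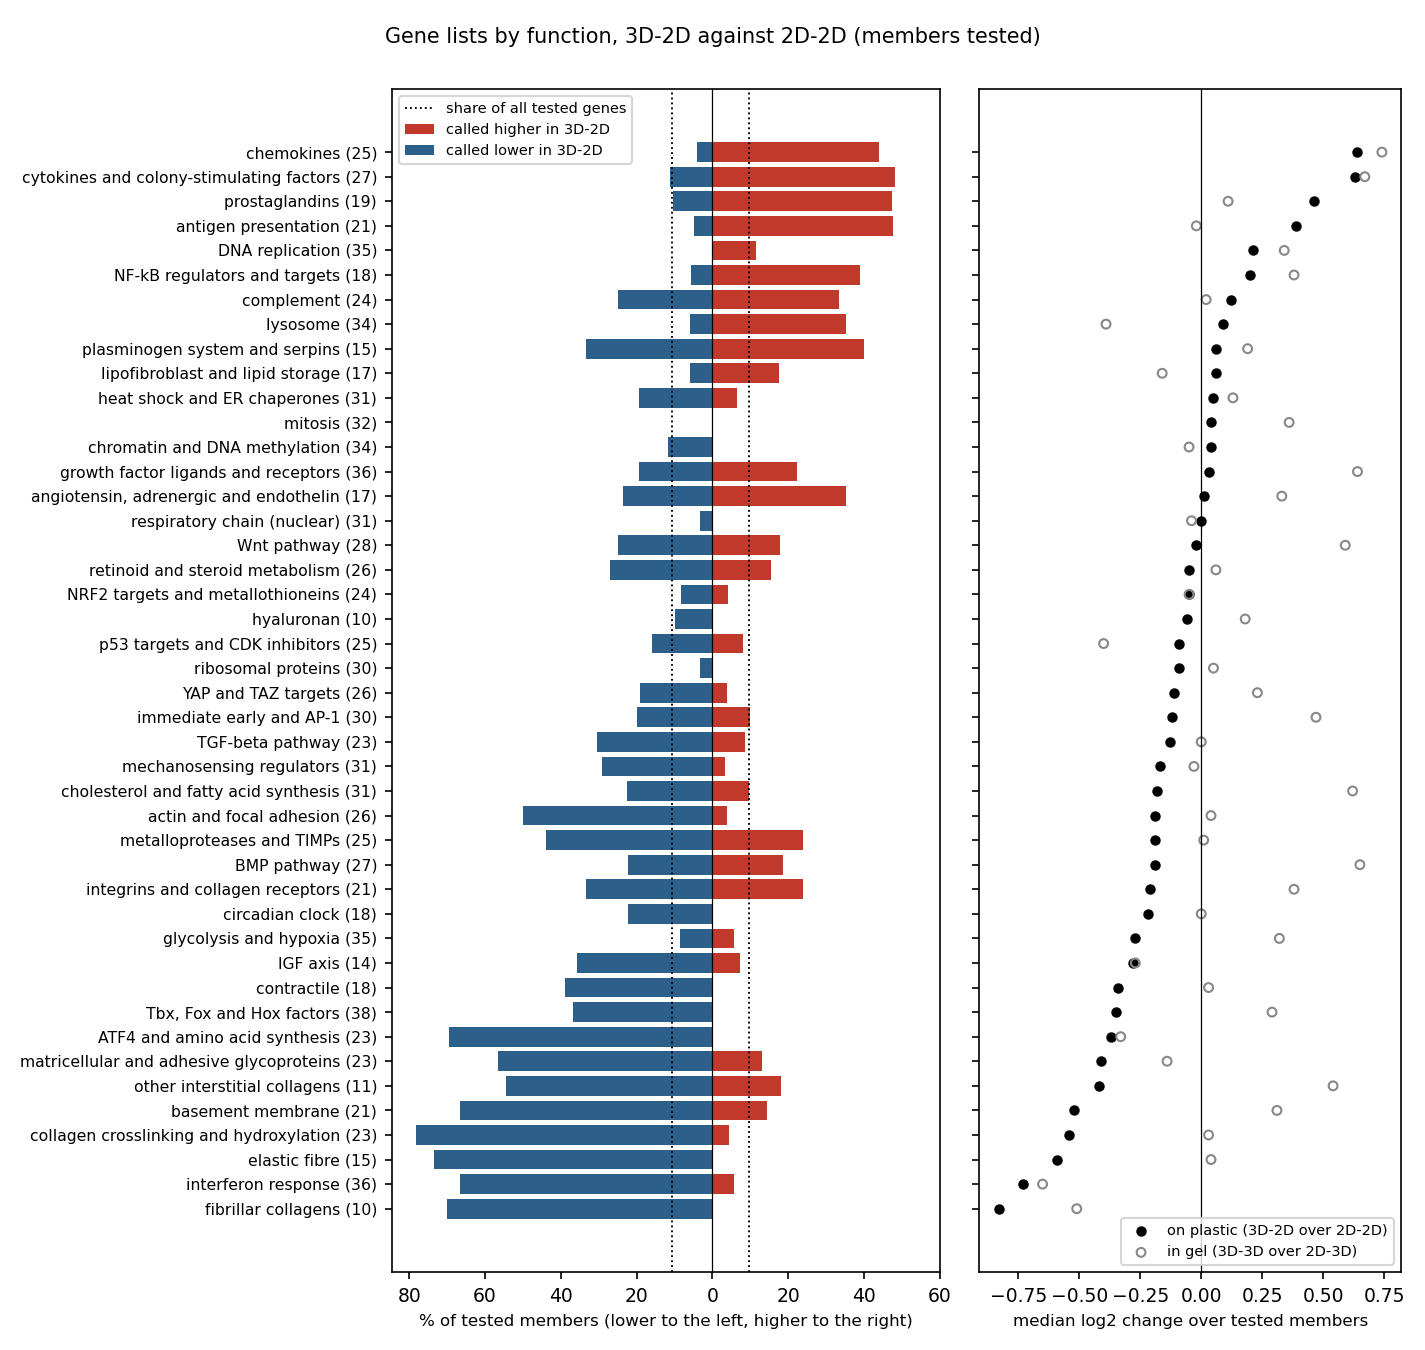
Left, share of the tested members of each functional list (number tested in brackets) called lower (to the left) or higher (to the right) in 3D-2D, with dotted lines at the shares of all tested genes (10.6% lower, 9.74% higher). Right, the median log2 change of each list on plastic (filled, 3D-2D over 2D-2D) and in gel (open, 3D-3D over 2D-3D). Collagen, elastic fibre and interferon lists lie at the lower end and chemokines and cytokines at the upper end.

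Of 38 Tbx, Fox, Hox and related developmental transcription factors 14 fell, none rose and 24 did not pass (median -0.35). Snai1, a repressor that drives mesenchymal conversion, averaged 235 ± 16.9 CPM in 3D-2D and 352 ± 16.5 CPM in 2D-2D (log2 change -0.59 ± 0.07, adjusted p = 4.80e-06), and Tcf21, a factor of lung fibroblast development, 39.1 ± 2.63 CPM in 3D-2D and 56.1 ± 6.11 CPM in 2D-2D (log2 change -0.53 ± 0.12, adjusted p = 0.00254). Marker lists of fibroblast states went in different directions. Of 20 activated fibroblast markers 10 were lower and 2 higher, and the list took 1.6 to 1.65% of counts in 3D-2D and 1.99 to 2.08% in 2D-2D. Cthrc1, a marker of collagen-producing scar fibroblasts, averaged 5.001 ± 0.517 CPM in 3D-2D and 7.89 ± 1.13 CPM in 2D-2D (log2 change -0.67 ± 0.17, adjusted p = 0.00683), and Postn (periostin) 4.38 ± 0.623 CPM in 3D-2D and 6.85 ± 1.64 CPM in 2D-2D, with overlapping libraries and a call lost in 2 of 19 alternatives (log2 change -0.66 ± 0.18, adjusted p = 0.0116).

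Adventitial fibroblast markers, in contrast, had 9 of 22 higher and 6 lower. Cd34, a surface sialomucin, rose to 4.28 ± 1.19 CPM in 3D-2D, against 1.45 ± 0.443 CPM in 2D-2D (log2 change 1.55 ± 0.24, adjusted p = 5.17e-05) and the matrix protein Dpt (dermatopontin) to 1.85 ± 0.412 CPM in 3D-2D, against 0.631 ± 0.312 CPM in 2D-2D (log2 change 1.53 ± 0.30, adjusted p = 7.58e-04), whereas Cygb (cytoglobin) fell to 22.6 ± 2.78 CPM in 3D-2D, against 62.2 ± 6.67 CPM in 2D-2D (log2 change -1.48 ± 0.11, adjusted p = 4.87e-09). Against the sorted cells these levels were small: Cd34 averaged 437 CPM there and Dpt 276 CPM. The summed share of the adventitial list was slightly lower in 3D-2D (0.147 to 0.152%) than in 2D-2D (0.157 to 0.167%). Without its most abundant member, Serpinf1, the ratio of the mean 3D-2D share to the mean 2D-2D share was 1.12, in place of 0.915. Alveolar fibroblast markers had 5 of 19 higher and 2 lower, and their summed shares overlapped (0.0582 to 0.0645% in 3D-2D and 0.0588 to 0.0824% in 2D-2D).

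Genes of other cell types made up much of the largest rises. Keratins and junction proteins of epithelial cells led the set of at least 10 CPM: Krt17 averaged 27.4 ± 22.9 CPM in 3D-2D and 0.1003 ± 0.0282 CPM in 2D-2D (7.99), its 2D-2D value resting on 7 counts over the 4 libraries. Cldn4, a tight junction protein, was at 13.1, 32.8, 34.8 and 20.9 CPM in 3D-2D, against 0.754, 1.03, 0.752 and 0.566 CPM in 2D-2D (log2 change 5.01 ± 0.41, adjusted p = 2.02e-08). Krt7, Krt8 and Krt18, keratins of simple epithelia (Krt8 and Krt18 also stand on the mesothelial list), rose by 4.11, 3.92 and 3.17 on the log2 scale. The 3D-2D libraries of each of these 3 genes varied by more than 2-fold, with replicate 1 the lowest. Sprr1a, a cornified envelope protein (3.20), Spint1, an inhibitor of epithelial serine proteases (2.96), Sfn, an epithelial 14-3-3 protein (2.39), and Vsig8, an immunoglobulin-domain membrane protein (2.56), were in the same set. Of 25 pan-epithelial markers tested 19 were higher and none lower. The filter used all 16 cultured libraries, so a marker near 0 in 2D-2D could be tested through groups where it was high. Such a marker could hardly be called lower. A fit of the 8 libraries alone tested 17 pan-epithelial markers, 15 of them higher and none lower. It tested 4 airway markers in place of 13, and 3 of the 4 were higher. A marker could still pass this filter through the 3D-2D libraries alone, so the fit does not remove the limit for markers near 0 in 2D-2D. Epcam, the antigen used for depletion of the sorted cells, averaged 2.16 ± 0.458 CPM in 3D-2D and 0.101 ± 0.0987 CPM in 2D-2D (log2 change 4.33 ± 0.51, adjusted p = 1.88e-06). Krt14 and Krt6a had no count in 2D-2D and 134 and 141 counts over the 4 libraries of 3D-2D, at least 42-fold and 44.2-fold higher against a floor of 3 counts over the group. Without 3D-2D replicate 3, the highest library of both, these bounds were 9.59-fold and 25.4-fold. Limma-voom called neither, and Krt14 was also lost without that library. Pan-epithelial markers took 0.0239 to 0.0422% of counts in 3D-2D and 0.0122 to 0.0133% in 2D-2D, and airway markers 0.00141 to 0.00673% in 3D-2D and 0.00038 to 0.000649% in 2D-2D. The airway ratio of mean 3D-2D to mean 2D-2D shares was 7.18, and 2.11 without Krt17, its most abundant marker. The pan-epithelial ratio of 2.74 became 4.5 without Jup. The airway secretory markers Scgb3a2, Muc5b and Bpifa1 had no count in either group. Keratins and Sprr genes have close relatives, and reads may be shared between them.

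Of 30 macrophage markers tested 26 were higher and 1 lower (median 0.66). Lyz2 (lysozyme), the most abundant, was at 6748, 6365, 7219 and 7324 CPM in 3D-2D, against 5874, 4969.6, 3724 and 4601 CPM in 2D-2D (log2 change 0.52 ± 0.12, adjusted p = 0.00431). Adgre1, which encodes the F4/80 antigen, was at 112, 111, 115 and 123 CPM in 3D-2D, against 58.7, 52.9, 56.2 and 59.5 CPM in 2D-2D (log2 change 1.01 ± 0.08, adjusted p = 8.26e-09), with little spread within either group. Cd163, a haemoglobin scavenger receptor, was scarce at 1.88 ± 0.133 CPM in 3D-2D and 0.288 ± 0.108 CPM in 2D-2D (2.67), and F13a1, the coagulation factor XIII chain that macrophages make, was at 276, 251, 249 and 239 CPM in 3D-2D, against 50.6, 42.5, 43.3 and 45.4 CPM in 2D-2D (log2 change 2.47 ± 0.13, adjusted p = 4.83e-11). The marker called lower was Cd14, a co-receptor for endotoxin, at 136 ± 6.63 CPM in 3D-2D and 179 ± 9.85 CPM in 2D-2D (log2 change -0.41 ± 0.14, adjusted p = 0.0428), and its call was lost in 10 of 19 alternatives. Cx3cr1, the fractalkine receptor of monocyte-derived cells, rose to 2.38 ± 0.422 CPM in 3D-2D, against 0.761 ± 0.224 CPM in 2D-2D (log2 change 1.62 ± 0.23, adjusted p = 1.92e-05), and the monocyte chemokine Ccl8 to 2.07 ± 0.620 CPM in 3D-2D, against 0.845 ± 0.314 CPM in 2D-2D (log2 change 1.28 ± 0.32, adjusted p = 0.00602; not called by limma-voom).

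Endothelial markers gave 8 higher and 1 lower of 29 (5 higher without 3D-2D replicate 3 or 2D-2D replicate 2, 2 lower without 3D-3D replicate 3), with Lyve1, a hyaluronan receptor of lymphatic endothelium and of some macrophages, at 3.58 ± 0.897 CPM in 3D-2D and 0.718 ± 0.304 CPM in 2D-2D (2.30) and the phosphatase Ptprb at 2.32 ± 0.301 CPM in 3D-2D and 4.89 ± 0.816 CPM in 2D-2D (-1.08). The summed endothelial shares overlapped, at 0.0236 to 0.0275% of counts in 3D-2D and 0.0216 to 0.0247% in 2D-2D, and Ccl21a had no count in either group. Lymphocyte markers gave 7 higher and 1 lower of 10 tested, at a summed share of 0.00218 to 0.00249% of counts in 3D-2D and 0.00107 to 0.00154% in 2D-2D. Cd79a, a B cell receptor component, averaged 1.93 ± 0.680 CPM in 3D-2D and 0.187 ± 0.143 CPM in 2D-2D (3.32). Cd3e of T cells had no count in either group, but other T cell genes of the list were among the 7 called higher. Dendritic cell markers gave 2 higher and none lower of 8, or 3 and 1 without 3D-3D replicate 3 (0.00301 to 0.00352% of counts in 3D-2D and 0.00211 to 0.00247% in 2D-2D). A fit of the 8 libraries alone tested fewer of these markers, though here too a marker could pass the filter through 3D-2D alone. It called 7 of 20 endothelial markers higher and 2 lower, 4 of 7 lymphocyte markers higher and 1 lower, and 3 of 6 dendritic cell markers higher and 1 lower. The part of these cells in the fibroblast genes that differed was not tested.

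**Figure D3:**
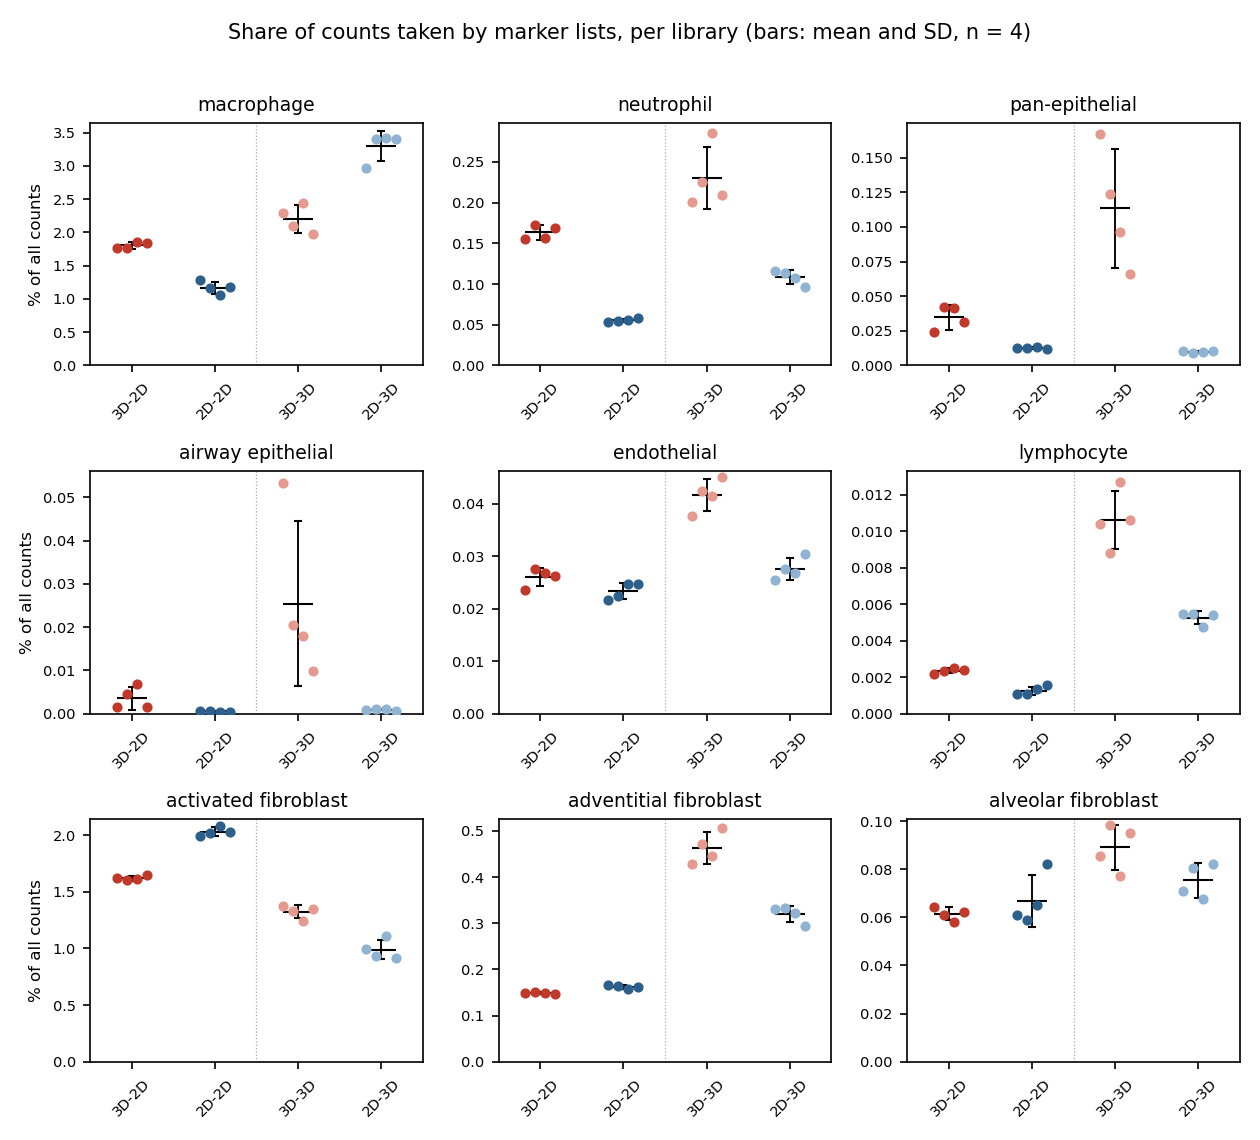
Share of all counts (y axes, % from 0) taken by the summed markers of 9 cell types or fibroblast states in each library of 3D-2D and 2D-2D, with 3D-3D and 2D-3D to the right of the dotted line. Points are libraries, bars the mean and SD (n = 4). Macrophage, neutrophil and pan-epithelial shares are higher in all 3D-2D than in all 2D-2D libraries, and the activated fibroblast share is lower.

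The same difference in first culture was examined in cells that ended in gel (3D-3D over 2D-3D), 8 libraries that share none with the comparison on plastic. There 3793 genes (27.7%) were called, 2052 (15%) higher and 1741 (12.7%) lower. Of the genes called on plastic, 1354 were also called in gel, 936 of them in the same direction (496 higher and 440 lower in both), which is 33.5% of the calls on plastic and 24.7% of those in gel. Another 418 were called in opposite directions, 278 higher on plastic and lower in gel and 140 the reverse. Across the 13704 genes the changes on the 2 substrates had a Pearson r of 0.572, given as a description since genes are not independent replicates. The direct test of the difference between the 2 changes (the change on plastic less that in gel, same fit) called 2654 genes (19.4%), 1247 (9.1%) higher and 1407 (10.3%) lower. These included 1347 of the 2793 genes called on plastic (48.2%), of which 960 had the opposite sign in gel. The test of the difference uses the same libraries on plastic that gave those 2793 calls, so selection raises this share. The 48.2% does not measure how many changes were particular to plastic.

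Some falls were seen on both substrates. Adgrd1 changed by -2.05 on plastic and -2.02 in gel, and Col1a1 by -1.11 and -1.13. Neither difference was called (adjusted p = 0.957 and 0.964 in edgeR's test of the difference), which does not show that they were equal. Hsd3b6 held 1 count over the 4 libraries of 3D-3D and 62 over those of 2D-3D, a log2 ratio of -5.97 with an exact 95% counting interval from -11.30 to -3.44. Thy1 fell on both, and more on plastic (difference -0.85 ± 0.14, adjusted p = 1.83e-04). The interferon list was lower in gel too (28 of 36 members lower and 2 higher), with a called difference in 9 members. Isg15 was -2.30 on plastic and -1.33 in gel (difference -0.97 ± 0.23, adjusted p = 0.00389).

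The enzymes of collagen maturation differed between substrates: 18 of 23 were lower on plastic, 2 of 23 in gel, and the difference was called in 16, 15 of them lower on plastic. Lox was -1.19 on plastic and 0.13 in gel, where it averaged 737 ± 251 CPM in 3D-3D, against 667 ± 188 CPM in 2D-3D (difference -1.32 ± 0.28, adjusted p = 0.00163). P4ha2 (-0.82 and 0.03) and Itga5 (-0.77 and 0.06) gave called differences as well (adjusted p = 0.022 and 1.44e-04 by edgeR). YAP and TAZ targets had 11 of 26 with a called difference, all lower on plastic than in gel, with Ankrd1 at 0.19 on plastic and 1.45 in gel (difference -1.25 ± 0.28, adjusted p = 0.00257). Of 31 genes of cholesterol and fatty acid synthesis 27 had a lower change on plastic than in gel.

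Most macrophage markers moved in opposite directions. Of the 30, 26 were higher and 1 lower on plastic, and 3 were higher and 18 lower in gel. In all 25 had a higher change on plastic in the test of the difference. Adgre1 was 1.01 on plastic but -0.76 in gel, with 117 ± 6.32 CPM in 3D-3D, against 197 ± 18.4 CPM in 2D-3D (difference 1.77 ± 0.11, adjusted p = 1.79e-09). C1qa was 0.62 and -0.78, Lyz2 0.52 and -0.85, Cx3cr1 1.62 and -1.74 and Ccl8 1.28 and -2.70, each with a called difference. F13a1 (2.47 and 0.54) and Cd163 (2.67 and 0.88) were instead called higher on both. The macrophage share of counts ran the same way, at 1.76 to 1.85% in 3D-2D against 1.06 to 1.28% in 2D-2D, and at 1.98 to 2.45% in 3D-3D against 2.97 to 3.42% in 2D-3D. Of 34 lysosomal genes 24 had a higher change on plastic than in gel. Fcrls, an Fc receptor-like gene of macrophages, did not pass on plastic (log2 change -0.03 ± 0.10, adjusted p = 0.893) and fell by 2.46 in gel. Mmp2 rose on plastic (0.79) and was lower in gel (-0.66; difference 1.46 ± 0.14, adjusted p = 3.07e-07).

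Epcam and Krt7 rose with a first culture in gel on both substrates, and less on plastic. Epcam changed by 4.33 on plastic and 8.53 in gel (difference -4.20 ± 1.16, adjusted p = 0.0128), and Krt7 by 4.11 and 6.41 (difference -2.30 ± 0.56, adjusted p = 0.00568). Krt19 was at 34.6, 57.8, 51.0 and 45.1 CPM in 3D-2D, against 40.8, 41.6, 44.5 and 29.4 CPM in 2D-2D. It did not differ beyond the spread on plastic (adjusted p = 0.553, edgeR), while in gel it averaged 160.4 ± 83.3 CPM in 3D-3D, against 2.88 ± 1.21 CPM in 2D-3D (log2 change 5.79 ± 0.34, adjusted p = 1.05e-10). Krt20 showed the largest negative difference among the named genes: it was scarce on plastic in both groups (1.47 ± 0.627 CPM in 3D-2D and 1.56 ± 0.296 CPM in 2D-2D; log2 change -0.10 ± 0.44, adjusted p = 0.908) and differed in gel (19.5 ± 12.3 CPM in 3D-3D, against 0.0233 ± 0.0269 CPM in 2D-3D), where 2D-3D held 2 counts in all and the log2 ratio of 9.69 had an exact 95% counting interval from 7.83 to 12.74. Among inflammatory genes Il11 rose less on plastic (difference -2.18 ± 0.25, adjusted p = 2.93e-06), whereas Ppbp, Cxcl3 and Il1b changed by 3.30, 2.33 and 2.41 on plastic and 2.95, 2.39 and 1.72 in gel with no called difference.

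**Figure D4:**
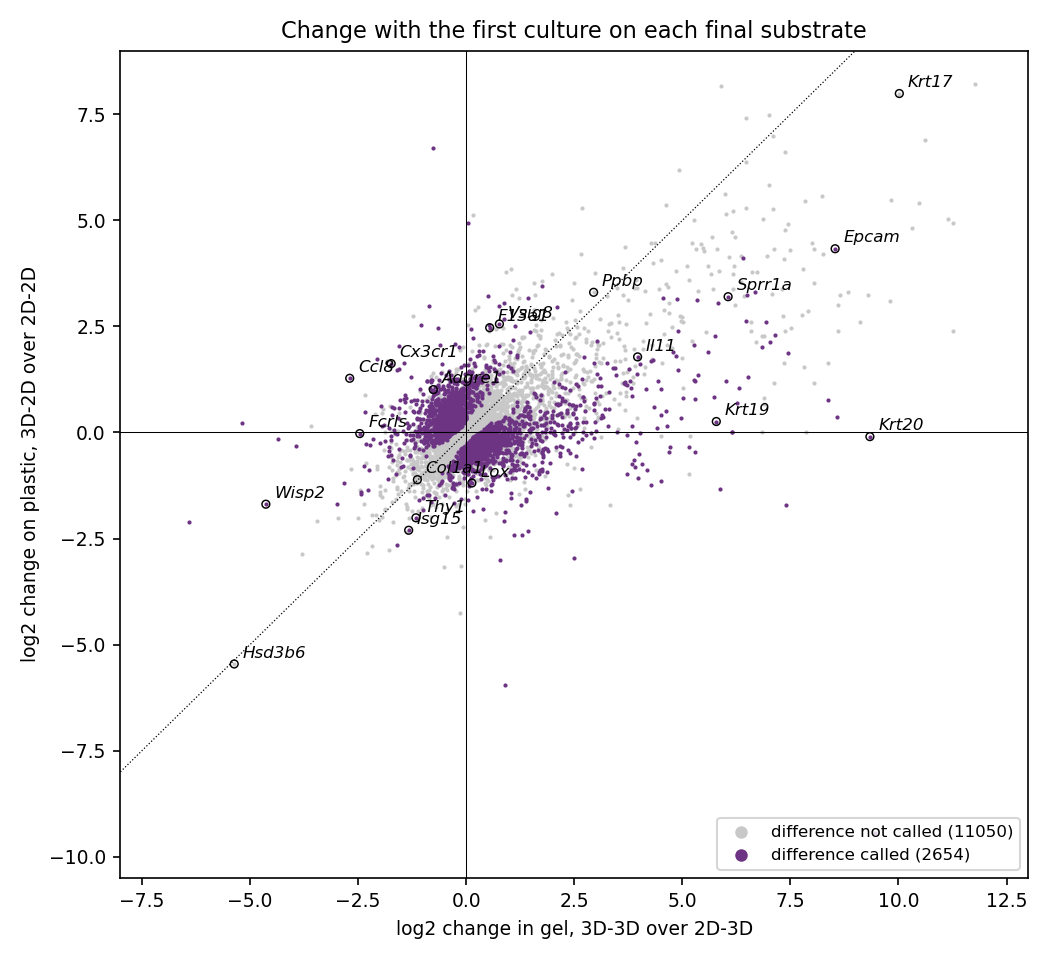
Log2 change with the first culture on plastic (3D-2D over 2D-2D, y axis) against that in gel (3D-3D over 2D-3D, x axis) for the 13704 tested genes. Purple marks the 2654 genes whose changes differed in the direct test, the dotted line equal change. Col1a1 lies near the line, Krt20 and Epcam below it, and Ccl8 and Cx3cr1 in the quadrant that is higher on plastic and lower in gel.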

How the data were processed

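RNA was measured by sequencing in 20 libraries, and the 8 labelled 3D-2D and 2D-2D were compared. Alignment used HISAT and Bowtie2 with the mouse genome GRCm38.p6, per the submitters' processing notes; tool versions and the program that counted reads were not given in the sources used here. Values deposited by the authors are expected counts per gene, and 5.98% of the values are not whole (tolerance 1e-06), so that they were rounded for the tests. Of 67228 genes 49216 were blank and left out, and 5 columns of group averages were not used. Symbols are those of the table (Ccn2 is listed as Ctgf, Ccn1 as Cyr61, Ccn5 as Wisp2 and Mrtfa as Mkl1). By gene ID 17888 genes matched RefSeq annotation of GRCm38.p6, with 349 symbols differing, and coordinates are counted from 1.

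Genes were tested with edgeR 4.0.16 (R 4.3.3): filterByExpr (13704 genes), TMM scaling, and 1 quasi-likelihood fit with a term for each of the 4 cultured groups (16 libraries, 12 residual degrees of freedom, common biological coefficient of variation 0.122), with Benjamini-Hochberg adjustment over all genes tested and calls at an adjusted p below 0.05. The filter was applied to these 16 libraries, so a gene near 0 in 1 group could pass it through another group. Standard errors are the log2 change divided by the square root of F. Levels are CPM on the TMM scaling of all 20 libraries. A bound against a group with no count uses a floor of 3 counts over the group, and covers counting error only. Marker lists (21 by cell type) and functional lists (45) are described by counts and medians, with no set test. The comparison, its lists and the named genes were chosen with earlier results of these data known. The rule for names took the 12 largest changes each way at 10 CPM or more without overlap, up to 3 called members each way and the 2 most abundant of each functional list, the most abundant and called cell type markers and the largest differences between substrates. It gave 433 genes, of which 114 are named, and 12 others were chosen after their values were seen: Plod2, Mmp2, Bmp4, Igf1, Rsad2, Zbp1, Irf7, Il1a, Il11, Cxcl2, Nfkbia and Asns. The rule's other genes are not described.

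Alternatives were RLE size factors, total counts alone, DESeq2 1.42.0, limma-voom (limma 3.58.1), other filters, other sets of libraries, a block for the replicate number, a least change of 2-fold and each of the 8 libraries or 3D-3D replicate 3 left out, with each gel library for the comparisons in gel. Left-out libraries were also applied to the counts per list and to the 2 lower bounds, chosen after seeing the data. In simulated counts, with 50 genes set to each fold change, the test on plastic found 14% of genes at 1.25-fold, 68% at 1.5-fold, 92% at 2-fold and 98% at 4-fold, and called 11 of 13504 unchanged genes. The test of the difference between substrates found 0%, 28%, 78% and 96% at those folds, with 6 false calls. The simulation gave every gene the same coefficient of variation (0.122) and, apart from the changed genes, the same mean in all groups. Genes of larger spread, libraries that stand apart and a large share of changed genes were not simulated. These rates therefore need not hold for the data.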

Additional observations from a re-analysis of the deposited data

Results flagged for a closer look

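For 11 of 284 groups of 4 libraries checked, 1 library stood apart from the other 3 by more than Dixon's 95% critical value, which chance alone gives in about 1 in 20 groups. In 3D-2D these were the lowest library for Zyx (replicate 1, 1515 CPM) and the highest for Lcn2 (replicate 2, 241 CPM), Krt14 (replicate 3, 6.04 CPM) and Ptprb (replicate 4, 2.77 CPM). In 2D-2D they were the lowest for Krt17 (replicate 1, 0.058 CPM), Serpinb2 (replicate 3, 13.7 CPM) and Cd74 (replicate 4, 3.39 CPM), and the highest for Krt7 (replicate 2, 3.48 CPM), Gbp4 (replicate 2, 0.0571 CPM), Cxcl2 (replicate 2, 8.68 CPM) and Fcrls (replicate 1, 54.1 CPM). The 2D-2D counts were 1, 2, 2 and 2 for Krt17 and 0, 1, 0 and 0 for Gbp4, so the flags of both rest on single counts.

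The change with the first culture differed between plastic and gel for 2654 genes in edgeR's direct test, and 65 genes named above are among them. For Hsd3b1, with no count in 3D-3D, the value is a lower bound against 3 counts over that group. Each value is the log2 change on plastic (3D-2D over 2D-2D) less that in gel (3D-3D over 2D-3D). A higher change can thus be a smaller fall, and a lower change a smaller rise. Wisp2, Col11a1 and Postn, for example, were called lower in 3D-2D than in 2D-2D. Among matrix, protease and crosslinking genes the change was higher on plastic for Col11a1 (0.97), Wisp2 (2.94), Postn (1.03), Tgfbi (1.37), Mmp2 (1.46), Mmp9 (0.48) and Serpinb2 (0.58). Among matrix, protease and crosslinking genes the change was lower on plastic for Lox (-1.32), P4ha2 (-0.85), Fbln2 (-0.51), Eln (-1.04), Lama3 (-2.77), Lamb3 (-2.21), Dcn (-0.78), Bgn (-0.53), Thbs2 (-0.67), Cthrc1 (-1.58), Timp1 (-0.78), Ctgf (-0.46) and Cyr61 (-0.60). Among contractile, mechanosensing and adhesion genes the change was lower on plastic for Myh11 (-0.85), Ankrd1 (-1.25), F3 (-0.89), Tead1 (-0.61), Yap1 (-0.38) and Itga5 (-0.83). Among signalling and transcription factor genes the change was higher on plastic for Tgfb1 (0.48) and Bmp2 (0.57). Among signalling and transcription factor genes the change was lower on plastic for Pmepa1 (-0.36), Rspo3 (-1.05), Chac1 (-0.75), Egr1 (-1.22) and Snai1 (-0.86). Among macrophage and other leukocyte genes the change was higher on plastic for C1qa (1.40), Lyz2 (1.37), Cd163 (1.79) and Adgre1 (1.77). Among macrophage and other leukocyte genes the change was lower on plastic for Cd74 (-0.87), Cd14 (-0.71) and Cd79a (-3.37). Among interferon, cytokine and other immune genes the change was higher on plastic for Ccl8 (3.97). Among interferon, cytokine and other immune genes the change was lower on plastic for Isg15 (-0.97), Ifit1 (-1.05), Usp18 (-0.82), Zbp1 (-0.80), Il11 (-2.18), Csf1 (-0.66), Lcn2 (-2.58) and Tbxa2r (-0.98). Among epithelial genes the change was higher on plastic for Spint1 (0.87). Among epithelial genes the change was lower on plastic for Krt7 (-2.30), Krt18 (-1.39), Sfn (-2.52), Epcam (-4.20) and Krt19 (-5.53). Among other named genes the change was higher on plastic for Hsd3b1 (at least 1.82), Vsig8 (1.79), F13a1 (1.93), Cx3cr1 (3.36) and Fcrls (2.44). Among other named genes the change was lower on plastic for Thy1 (-0.85), Sprr1a (-2.86), Cygb (-0.62), Ptprb (-1.20) and Krt20 (-9.44).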

How the results depend on the processing

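The count of genes called between 3D-2D and 2D-2D was 2749 with RLE size factors, 2987 with DESeq2, 2513 with limma-voom, 2685 without a filter, 2782 with at least 1 CPM in 4 libraries, 3224 in a fit of the 8 libraries and 3083 in one of all 20, and no gene shared with the reported calls changed direction. Total counts alone gave 865 lower and 1887 higher calls. A test against a change of 2-fold called 137 genes, 108 higher and 29 lower. Leaving out 1 of the 8 libraries or 3D-3D replicate 3 gave 2234 to 3182 calls, 1070 to 1490 higher and 947 to 1692 lower. Among these the lowest count of lower calls came without 3D-2D replicate 1 and the highest total without 3D-3D replicate 3. The cause was not tested.

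Libraries with the same replicate number did not deviate together (correlations -0.046, 0.015, -0.037 and -0.006), so the numbers do not pair them; with a replicate block 2676 genes were called on plastic (1278 higher, 1398 lower), 3692 in gel and 2563 for the difference between substrates. Without 1 library the calls in gel ran from 3435 to 4048 and those of the difference from 2263 to 2913.

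Of 111 named genes called on plastic, 99 stayed on the same side of the threshold in every alternative except the 2-fold test, which 46 passed, and none was reversed. Some named genes without a call gained one. Among these 15 genes, 4 were called in the fit of the 8 libraries and 3 without 3D-3D replicate 3. The other alternatives called fewer or none. Values that changed sign belonged to genes or shares with no call: Pdgfra was 0.07 with total counts alone, 0.01 with 8 libraries and -0.05 to 0.06 without 1 library; Fn1 was -0.21 to 0.03 without 1 library; Cyr61 was 0.06 with total counts and -0.07 to 0.06 without 1 library; Plk1 was 0.02 with total counts; Krt20 was -0.33 to 0.10 without 1 library; Fcrls was 0.06 with total counts, 0.00 with 8 libraries and -0.07 to 0.09 without 1 library. Without the most abundant marker, the log2 ratio of 3D-2D to 2D-2D shares became 0.17 for adventitial fibroblasts, 0.04 for alveolar type 1 cells and 0.42 for cardiac and skeletal muscle. At this depth, genes of a few counts per library (Krt17, Gbp4, Csf2 and Lama3 in 2D-2D) have large counting error.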

Other observations

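Lists not described above were mostly divided or nearly still. Among all tested genes 9.74% were higher and 10.6% lower, and several of the counts below lie near these shares. Of 26 genes of retinoid and steroid metabolism 4 were higher and 7 lower in 3D-2D, and of 17 angiotensin, adrenergic and endothelin genes 6 were higher and 4 lower. Circadian clock genes had 4 of 18 lower and none higher (2 lower without 3D-2D replicate 1 or 3 or 2D-2D replicate 3 or 4, and 7 without 3D-3D replicate 3). Of 24 NRF2 targets and metallothioneins 1 was higher and 2 lower (1 to 2 and 1 to 5 with 1 library left out). Among 25 p53 targets and CDK inhibitors 2 were higher and 4 lower (1 to 2 and 1 to 4 with 1 library left out). Heat shock and ER chaperones had 2 of 31 higher and 6 lower (3 and 3 without 3D-2D replicate 1). Lipid storage genes had 3 of 17 higher and 1 lower (1 to 4 and 1 to 2 with 1 library left out). Hyaluronan genes had 1 of 10 lower.

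Among the remaining cell types, 3 of 13 alveolar type 2 markers were higher and none lower, with summed shares of 0.038 to 0.0406% of counts in 3D-2D and 0.0263 to 0.032% in 2D-2D, and 3 of 14 alveolar type 1 markers were higher and 3 lower, at 0.0688 to 0.0736% in 3D-2D and 0.0732 to 0.0764% in 2D-2D. Mesothelial markers had 5 of 15 higher and 3 lower, with log2 changes from -1.15 to 3.92. They took 0.0095 to 0.0175% of counts in 3D-2D and 0.00525 to 0.00642% in 2D-2D. The ratio of mean shares was 2.43, and 3.97 without Krt19, the most abundant marker. Krt8 and Krt18 were among the higher ones and stand on the pan-epithelial list too, and which cells made them was not tested. Pericyte markers had 3 of 15 higher and 4 lower, at 0.0468 to 0.0533% in 3D-2D and 0.0701 to 0.0756% in 2D-2D. Markers of mast cells and basophils took 0.00437 to 0.00534% of counts in 3D-2D and 0.00599 to 0.00672% in 2D-2D, and 7 of the 16 had no count in either group. The ratio of mean shares was 0.75, and 0.433 without the most abundant marker. Only 4 were tested, of which 2 were higher and 1 lower (median log2 change 0.46). Without 3D-2D replicate 1 these were 1 and 1.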
